A study of Mus musculus with 547 samples.

Results

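The cells described here are the 53 single cells of E14.5 mouse fetal liver whose titles carry the DLK+ or the EpCAM+ gate and whose putative type in the labels is hepatoblast or hepatocyte. They make up 53 of the 447 single cells taken straight from embryos and of the 529 cells of the study when cultured explants are counted. Of them, 27 came through the gate for DLK1, a surface protein of hepatoblasts, and 26 through the gate for EpCAM, an epithelial surface protein. The labels give no genotype, strain or treatment for these cells. The number of embryos behind a gate and the way the putative type was assigned are not given in the sources used here.

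Cells were sorted, picked by hand with a mouth pipette and amplified with the full-length Smart-seq2 protocol. Titles also carry a set number. The DLK+ cells fall into sets of 10, 3 and 14 cells and the EpCAM+ cells into sets of 8, 6 and 12. The cells were compared with 39 DLK+ and 16 EpCAM+ hepatoblasts of E13.5, with 39 DLK+ cells of E15.5 and with the 17 E14.5 cells of the EpCAM+ gate labelled as cholangiocytes. Counts of cells are also set beside DLK+ cells of E10.5 to E12.5 and E17.5 and beside cholangiocytes of E15.5 and E17.5, all without treatment. From the series description, the single cells serve to chart how hepatoblasts become hepatocytes or cholangiocytes.

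Hepatoblasts are the shared progenitors of hepatocytes, the metabolic cells of the liver, and of cholangiocytes, the cells that line bile ducts. In mid-gestation they proliferate and already secrete plasma proteins, with Afp and Alb in the lead, while the fetal liver is also the main site of blood formation. The Notch and TGF-beta pathways and the transcription factors Sox9 and Onecut1 take part in the biliary choice, and Hnf4a, Cebpa and Prox1 in the hepatocyte choice.

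Each of the 53 cells had 853115 to 1587322 reads in genes, with a median of 1178135. The cells of set 3 stand apart in both gates. In the labels they are described in another notation than sets 1 and 2, and the labels leave undefined whether a set stands for a litter, a sorting run or a plate. When each cell was thinned to 815623 reads, a median of 7760 genes was detected in the 26 cells of set 3 against 8707 in the 27 cells of sets 1 and 2. Spiked-in ERCC RNA took a median of 3.19% and 2.40% of the reads. No pair of cells held identical counts. A p-value over sets measures only how far sets differ from each other, which may be technical in part.

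All 53 cells held the hepatoblast markers. The values are TPM, reads per gene length scaled to the same total in every cell. Afp (ENSMUSG00000054932, GRCm38 chromosome 5, 90490737 to 90508907), the fetal counterpart of albumin, ran from 25260 to 107100 TPM with a median of 66330. Alb (ENSMUSG00000029368, chromosome 5, 90460897 to 90476602) ran from 6477 to 60680 TPM with a median of 32020. Its set medians were 27960, 37200 and 30930 TPM in the DLK+ gate and 34210, 27460 and 35420 TPM in the EpCAM+ gate, so the ranges of both gates overlap. Gys2 (ENSMUSG00000030244, chromosome 6, 142422613 to 142473109), the liver form of glycogen synthase, ran from 24.43 to 454.6 TPM with a median of 198.2 and reached 10 TPM in all 53 cells, against 2 of the 17 cholangiocytes. Dlk1 (ENSMUSG00000040856, chromosome 12, 109452823 to 109463336), which encodes the protein of the DLK+ gate, was present in all 26 cells sorted for EpCAM as well. Its set medians were 502, 492 and 161 TPM in the DLK+ gate and 613, 458 and 160 TPM in the EpCAM+ gate. Set 3 is the low set in both gates, with 100.5 to 221.8 TPM against 185.3 to 726.7 TPM in the cells of sets 1 and 2. Alb, Afp and Dlk1 also reached 10 TPM in all 17 cholangiocytes, so of these markers Gys2 alone was rare in them.

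**Figure D1:**
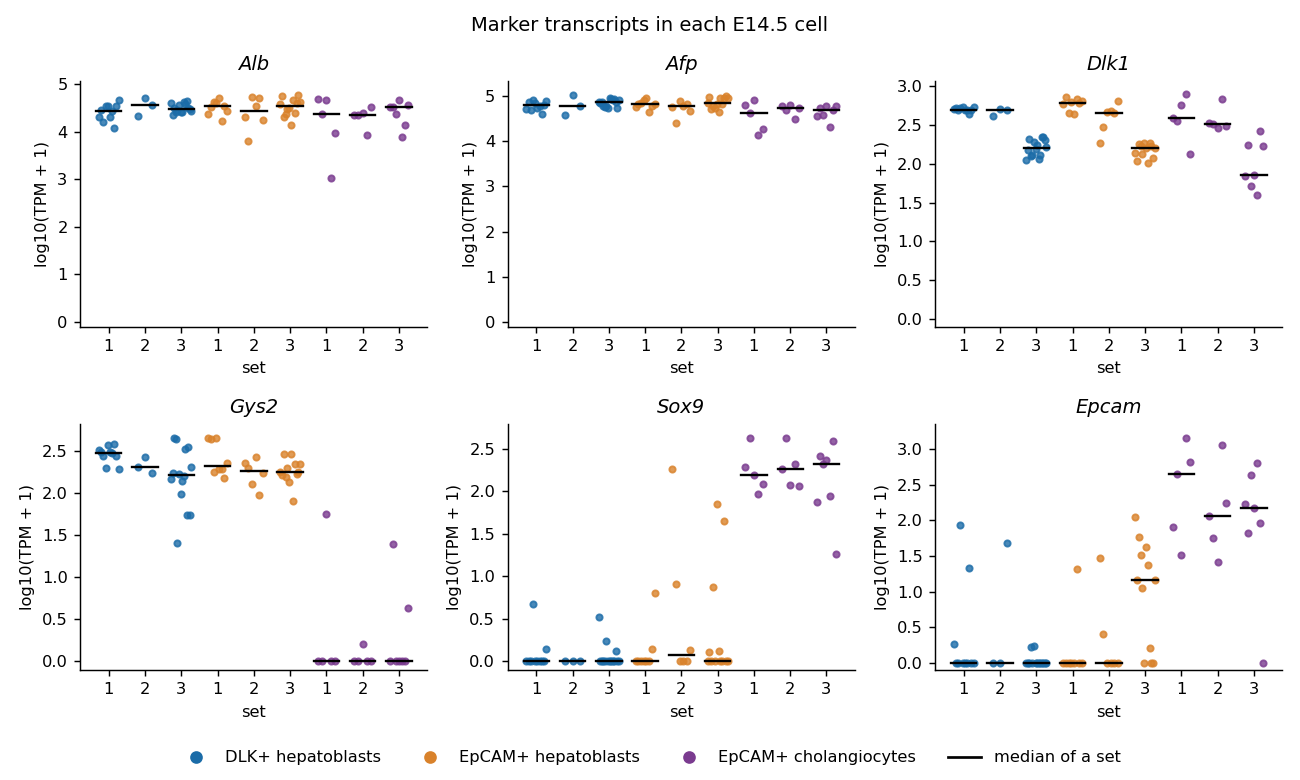
Each point is a cell, the vertical axis is log10(TPM + 1), the horizontal axis is the set number, blue marks DLK+ hepatoblasts, orange EpCAM+ hepatoblasts, purple cholangiocytes, and black bars are set medians. Alb, Afp and Gys2 are present in all 53 hepatoblasts, Dlk1 is low in set 3 of both gates, and Sox9 is at 0 or low in all but 3 hepatoblasts.

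Genes of secreted plasma proteins were among the most abundant of these cells. The list of plasma carriers and apolipoproteins, 18 genes, took a median of 18.2% of the TPM of a cell (6.78 to 30.2%). After Afp and Alb came Apoa2 and Apoa1, the main proteins of high-density lipoprotein, with medians of 19000 and 17120 TPM. Serpina6, which carries glucocorticoids in plasma, had 13510 TPM, Rbp4, which carries retinol, 10800 TPM and Ttr, which carries thyroxine, 8079 TPM. Of the list, 17 genes reached 10 TPM in all 53 cells and Apoa4, a gut apolipoprotein, in none. Among the 20 genes of highest mean TPM were also loci such as Yam1, Gm13340 and Gm10222. In all, 11 loci whose reads may come from near-identical copies elsewhere took a median of 15.6% of TPM, 18.35% in sets 1 and 2 and 13.98% in set 3, and are not discussed further.

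The promoters of Alb, Afp and Fabp1 are shown because they carry the same short motif. GTTAAT was searched on both strands from 250 bases before to 50 bases after the start of each gene. The sequences are RefSeq's, GRCm38.p6, plus strand, 5′ to 3′, with GTTAAT in capitals. They lie at chr5:90460620-90460919 (Alb), chr5:90490464-90490763 (Afp) and chr6:71199629-71199928 (Fabp1).

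Alb: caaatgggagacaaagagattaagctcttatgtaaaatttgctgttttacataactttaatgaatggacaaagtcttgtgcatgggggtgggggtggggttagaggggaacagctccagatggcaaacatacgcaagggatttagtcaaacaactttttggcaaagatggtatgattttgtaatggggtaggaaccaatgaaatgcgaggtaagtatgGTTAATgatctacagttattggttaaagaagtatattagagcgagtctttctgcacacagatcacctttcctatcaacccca

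Afp: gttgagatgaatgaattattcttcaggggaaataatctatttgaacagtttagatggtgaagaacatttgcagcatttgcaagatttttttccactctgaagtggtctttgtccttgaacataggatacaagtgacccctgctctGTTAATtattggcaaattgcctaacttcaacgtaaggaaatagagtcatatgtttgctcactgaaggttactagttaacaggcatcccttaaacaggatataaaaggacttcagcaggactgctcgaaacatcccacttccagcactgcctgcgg

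Fabp1: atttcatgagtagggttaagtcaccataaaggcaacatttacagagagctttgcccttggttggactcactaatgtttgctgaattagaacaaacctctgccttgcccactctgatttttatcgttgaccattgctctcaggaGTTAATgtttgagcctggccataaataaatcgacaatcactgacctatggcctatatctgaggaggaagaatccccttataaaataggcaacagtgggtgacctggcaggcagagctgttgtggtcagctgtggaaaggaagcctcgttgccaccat

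The first base of the motif lies at -32 from the RefSeq start in Alb, at -105 in Afp and at -107 in Fabp1. The RefSeq starts differ from the starts of the GENCODE gene coordinates given for these genes. Of 15 plasma list genes with a promoter in the table, 6 held the motif (40%: Gc, Alb, Afp, Fabp1, Vtn and Serpina1a). Of 12 coagulation genes 4 held it (33.3%), of 11 biliary list genes 3 (27.3%: Pkhd1, Spp1 and Dcdc2a), of 15 G2 and mitosis genes 2 (13.3%), and of 27025 promoters in all 1946 (7.2%). A match describes the letters only.

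The coagulation and complement list was nearly complete. Of its 18 genes, 14 reached 10 TPM in all 53 cells and 16 in at least 48. The fibrinogen chains Fga, Fgb and Fgg had medians of 1396, 3889 and 2776 TPM, prothrombin (F2) 977 TPM and antithrombin (Serpinc1) 1347 TPM. The complement gene C3 had a median of 340 TPM. C4b, another complement gene, reached 10 TPM in 4 cells.

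Metabolic programs were uneven. A gene is counted as present in a cell at 10 TPM or more. Of the urea cycle, Otc (288 TPM), Ass1 (414 TPM) and Asl (151 TPM) were present in 52 or 53 cells, but Cps1, the first enzyme of the cycle, reached 10 TPM in 25 cells and Arg1, the last, in 39. Amino acid breakdown was uneven as well, with Hpd in 51 cells and Fah and Hgd in 53, while Tat was in 1 cell and Tdo2 in none. For glucose handling, glycogen phosphorylase (Pygl, 201 TPM) was in all cells. The enzymes that release new glucose were nearly unseen, with Pck1 in 2 cells, Fbp1 in 8 and G6pc in none. A count of 0 of 53 cells allows a share of up to 5.66% of cells, for counting error only.

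Lipid synthesis and breakdown genes were on in nearly every cell. All 12 genes of cholesterol synthesis and uptake reached 10 TPM in at least 52 cells, with Fdps, which makes farnesyl diphosphate, at a median of 1122 TPM. Of 12 genes of fatty acid oxidation and ketogenesis 10 reached 10 TPM in all 53 cells, led by Acaa2 (1338 TPM), and Cpt1a, which admits fatty acids to mitochondria, in 29 cells. Bile acid genes were sparse by comparison. Of 12, only the bile acid CoA ligase Slc27a5 reached 10 TPM in more than 48 cells (49 cells, median 41.5 TPM). The export pump Abcc2 was in 45 cells, while Cyp7a1, the rate-limiting enzyme of bile acid synthesis, was in 4, the uptake carrier Slc10a1 in 13 and the export pump Abcb11 in 19. Drug metabolism genes ranged from the glutathione transferase Gstm1 (1559 TPM, 53 cells) to Cyp2e1 and Cyp2c29 in none.

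Iron, hormone and signal genes of the fetal liver were also present. The metallothionein Mt1 had a median of 14950 TPM, and the iron store genes Fth1 and Ftl1 had 1965 and 2185 TPM. Hamp, the iron hormone of the later liver, had no read in any of the 53 cells. Signals to blood cells included Kitl in 48 cells (41.5 TPM), Thpo in 44 (34.8 TPM), Cxcl12 in 52 (52.3 TPM) and Epo in 15. Of 14 fetal and imprinted genes 10 were in at least 48 cells, among them Gpc3 (1503 TPM), H19 (1224 TPM) and Igf2 (1089 TPM). Lin28b, a fetal RNA-binding protein, was in 17 cells.

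Of 18 liver transcription factors only 4 reached 10 TPM in at least 48 cells. These were Foxa3 (170 TPM, 53 cells), Xbp1 (376 TPM, 53 cells), Hhex (110 TPM, 52 cells) and Hnf4a (40.3 TPM, 48 cells). Prox1 was in 46 cells, Cebpa in 44, Foxa2 in 42 and Onecut1 in 4, and Cebpb was in none. In Notch and TGF-beta signalling the receptors Notch2 (39 cells) and Tgfbr2 (37 cells) and the target Hes1 (47 cells, 0 to 556.9 TPM) were seen. The ligands Jag1, Jag2 and Tgfb2 reached 10 TPM in no cell. Across 13715 genes the mean of the 27 DLK+ cells correlated with the mean of 2 bulk libraries of DLK+ cells of the same day at a Spearman rho of 0.824, against 0.966 between both libraries. In bulk libraries fewer cells of a type and less RNA per cell cannot be told apart.

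Biliary transcripts in the hepatoblasts were of a few kinds. The list holds 18 genes. Clu, a secreted chaperone, reached 10 TPM in all 53 cells (median 247 TPM) and the membrane protein gene Prom1 in 47 (32.6 TPM). The claudin Cldn7 was in 16 cells, Epcam in 13, the RNA-binding protein gene Bicc1 in 12, Sox9 in 3, and Spp1 (osteopontin) and the collagen receptor Ddr1 in 2 each. Another 9 genes, among them the duct keratins Krt19 and Krt7, Spon1 and the cilium gene Pkhd1, reached it in none. Krt19 did not exceed 1.98 TPM in any hepatoblast, and Cftr and Aqp1 had no read in the 53 cells. A hepatoblast held 1 to 7 of the 18 genes at 10 TPM, with a median of 3, and an E14.5 cholangiocyte 5 to 15, with a median of 12.

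Sox9 (ENSMUSG00000000567, chromosome 11, 112782224 to 112787760), an early transcription factor of duct cells, was rare in the hepatoblasts. All 17 cholangiocytes had at least 17.06 TPM, with a median of 183 TPM. Of the 53 hepatoblasts 3 reached 10 TPM, all from the EpCAM+ gate. Cells are named by their gate, set and number in the title. EpCAM+ set 2 cell 1 had 181.6 TPM from 506 reads, EpCAM+ set 3 cell 6 had 69.78 TPM from 211 reads, and EpCAM+ set 3 cell 11 had 43.55 TPM from 161 reads. Among the 27 DLK+ cells the highest value was 3.694 TPM.

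These 3 cells kept the hepatoblast transcripts, with Gys2 at 224, 133 and 167 TPM in the order named. Alb and Afp were high in the E14.5 cholangiocytes too, with set medians of Alb of 23970, 22550 and 33830 TPM. Of these genes Gys2 alone was rare there. EpCAM+ set 2 cell 1 had 20560 TPM of Alb, 57480 TPM of Afp and 224 TPM of Gys2, within the range of the other cells. With 7 of the 18 genes at 10 TPM, Epcam, Bicc1, Prom1, Cldn7 and Clu among them, it held the most biliary transcripts of all 53 cells. Its Dlk1 was 185.3 TPM, the lowest of the cells of sets 1 and 2, and Spp1 was 3.94 TPM. EpCAM+ set 3 cell 6 had 32240 TPM of Alb and no read of Epcam. EpCAM+ set 3 cell 11 held 4 of the 18 genes, with Sox9, Prom1 and Clu among them. None of the 3 had a read of Krt19.

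Epcam (ENSMUSG00000045394, chromosome 17, 87635979 to 87651129) itself reached 10 TPM in 10 of the 26 hepatoblasts sorted for the protein. These were 1 of 8, 1 of 6 and 8 of 12 cells of sets 1, 2 and 3, beside 2 of 10, 1 of 3 and 0 of 14 DLK+ cells. The highest values were 110.0 TPM in the EpCAM+ and 86.1 TPM in the DLK+ gate. In the cholangiocytes of the same gate 16 of 17 cells reached 10 TPM, with a highest value of 1449 TPM. Spp1 reached 10 TPM only in 2 DLK+ cells of set 3, at 19.59 and 11.28 TPM.

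Counting cells rather than genes, 24 of 53 hepatoblasts held at least 4 biliary list genes at 10 TPM (45.3%, exact Clopper-Pearson 95% interval 31.6 to 59.5%). By set these were 3 of 10, 2 of 3 and 5 of 14 DLK+ cells and 3 of 8, 1 of 6 and 10 of 12 EpCAM+ cells. Set 3 of the EpCAM+ gate is the high set. The interval takes the 53 cells as independent and does not measure the spread between sets. The shares of DLK+ sets 1 and 2 and of EpCAM+ sets 2 and 3 lie outside it. Without set 3 the count was 9 of 27, and in set 3 it was 15 of 26. Clu, present in all 53 hepatoblasts, and Prom1, present in most, enter the count of most cells. With 1 TPM as the limit for a gene the count was 46 of 53, and with 50 TPM it was 3. In the DLK+ gate the count was 23 of 54 at E10.5, 7 of 36 at E11.5, 3 of 21 at E12.5 and 4 of 39 at E13.5. It was 10 of 27 at E14.5, 3 of 39 at E15.5 and 2 of 35 at E17.5. In EpCAM+ hepatoblasts the count was 8 of 16 at E13.5 and 14 of 26 at E14.5.

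**Figure D2:**
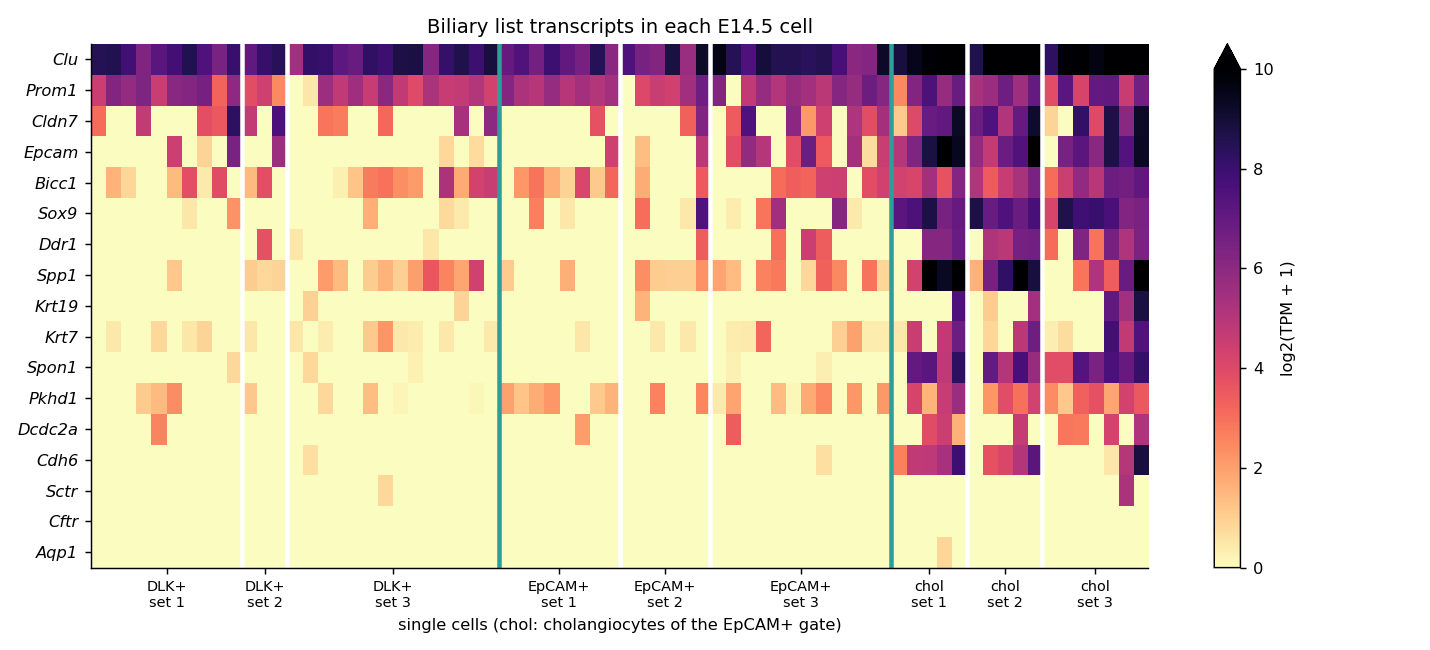
Rows are 17 of the 18 biliary list genes and columns the E14.5 cells, grouped by gate, type (chol marks cholangiocytes) and set, with colour giving log2(TPM + 1). Clu and Prom1 run through the hepatoblasts, Sox9 is seen in 3 of them, and the genes from Krt19 down stay under 10 TPM in all 53 hepatoblasts.

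A second list was drawn from older cells, so that E14.5 values played no part in choosing it. It holds the 30 genes at 10 TPM or more in at least 80% of 70 cholangiocytes of E15.5 and E17.5 and in at most 5% of 74 hepatocytes of those days. The E14.5 hepatoblasts held 0 to 6 of the 30 genes, with a median of 2, and the E14.5 cholangiocytes 9 to 29, with a median of 24, so the ranges do not overlap. The labels may rest on such genes, so this is a description without a test. E10.5 cells of the DLK+ gate held 3 to 10, with a median of 6, E13.5 cells 0 to 4 and E15.5 cells 0 to 4 with a median of 0. The 16 EpCAM+ hepatoblasts of E13.5 held 1 to 10, with a median of 2.5, which reaches into the range of the E14.5 cholangiocytes. Cldn6, a claudin at 716 TPM in the median E14.5 cholangiocyte, reached 10 TPM in 1 hepatoblast. Seen most often in the hepatoblasts were Bicc1 (12 of 53 cells), Palm (11), Cd24a (10) and P4ha3 (10), genes picked after their values were seen.

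No gene passed the test between hepatoblasts of the DLK+ and the EpCAM+ gate. The cells of a set were added up to a single sum of reads, and the 3 sums per gate were compared. With edgeR's quasi-likelihood test and Benjamini-Hochberg adjustment at 0.05, 0 of 16838 genes passed (0% called), 878 had an unadjusted p under 0.05, and DESeq2 called 21. Normalised CPM of the summed reads are used from here on. Alb had 30451, 47362 and 44140 CPM in sets 1 to 3 of the DLK+ gate and 38799, 33857 and 48513 in those of the EpCAM+ gate, a log2 difference of -0.01 ± 0.36 (SE). Dlk1 had 1278, 1347 and 509 CPM against 1592, 1057 and 461, a difference of -0.01 ± 0.35. Set 3 is lowest in both gates and the gates overlap. On simulated counts the test of gates found 27% of planted 2-fold and 70% of planted 4-fold changes in genes of at least 10 CPM. The lack of calls therefore does not show that the gates are alike.

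Sox9 had the widest gap between gates of the 8 markers followed. It had 0.936, 0 and 0.593 CPM in the DLK+ sums and 1.84, 71.4 and 26.9 CPM in the EpCAM+ sums. The groups do not overlap, and the log2 difference of 5.70 ± 1.36 did not pass the test (adjusted p = 0.51, edgeR). It passed in 1 of 14 alternatives, DESeq2 (adjusted p = 0.018), and the difference ran from 1.01 on the mean of log2(TPM + 1), with limma, to 6.25, with adjusted p from 0.018 to 1. The 3 cells named above lie in EpCAM+ sets 2 and 3. Epcam had 11.8, 19.7 and 0.132 CPM against 3.06, 5.56 and 34.2, which overlap. The 16 biliary list genes tested had a median log2 difference (EpCAM+ minus DLK+) of 0.11 and the 18 plasma list genes one of -0.004, beside 0 over all genes tested. None of the 24 lists had a member that passed.

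A large share of the cells expressed genes of division. Of the 18 genes of the G2 and mitosis list, at least 9 reached 10 TPM in 22 of 53 cells (41.5%, exact 95% interval 28.1 to 55.9%). By set these were 8 of 10, 1 of 3 and 5 of 14 DLK+ cells and 3 of 8, 3 of 6 and 2 of 12 EpCAM+ cells. DLK+ set 1 is the high set, EpCAM+ set 3 the low set. Their shares, 80% and 16.7%, lie outside the interval. It takes the cells as independent and does not measure the spread between sets. In sets 1 and 2 of both gates together the count was 15 of 27, and in set 3 7 of 26. The course over days in the DLK+ gate was 51 of 54 cells at E10.5, 28 of 36 at E11.5, 16 of 21 at E12.5, 17 of 39 at E13.5, 14 of 27 at E14.5, 12 of 39 at E15.5 and 3 of 35 at E17.5. E14.5, at 51.9% of DLK+ cells, stood above E13.5 (43.6%) and E15.5 (30.8%), a difference that was not tested. Within E14.5 set 1 had 80%, and sets 2 and 3, with 33.3% and 35.7%, were below the E13.5 share. The S phase list went the other way. Its mean log2(TPM + 1) in DLK+ cells was 5.38 at E13.5, 4.41 at E14.5 and 4.17 at E15.5.

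Single genes show how wide the range within a set is. Ccna2, the cyclin of S phase and G2, ran from 0 to 384.7 TPM with a median of 17.45, and Plk1, a mitotic kinase, from 0 to 376.9 TPM with a median of 0. Of 16 S phase genes 3 reached 10 TPM in at least 48 cells, Slbp (51) and Mcm2 (50) among them, while Mcm3 was in 33 cells and Rrm2 in 31. The cell cycle inhibitor Cdkn1c was in every cell (88.48 to 935.6 TPM), while Cdkn1a was in 9. Over the 53 cells, with set means taken out, the G2 and mitosis score (the mean of log2(TPM + 1) over the list) had a Pearson r of 0.33 with the S phase score. With the plasma list score r was -0.48 (-0.55 in DLK+ and -0.43 in EpCAM+ cells), and with the urea cycle and amino acid score -0.56 (-0.53 and -0.60). These values describe cells whose TPM sum to the same total, so that a rise in some genes lowers others.

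**Figure D3:**
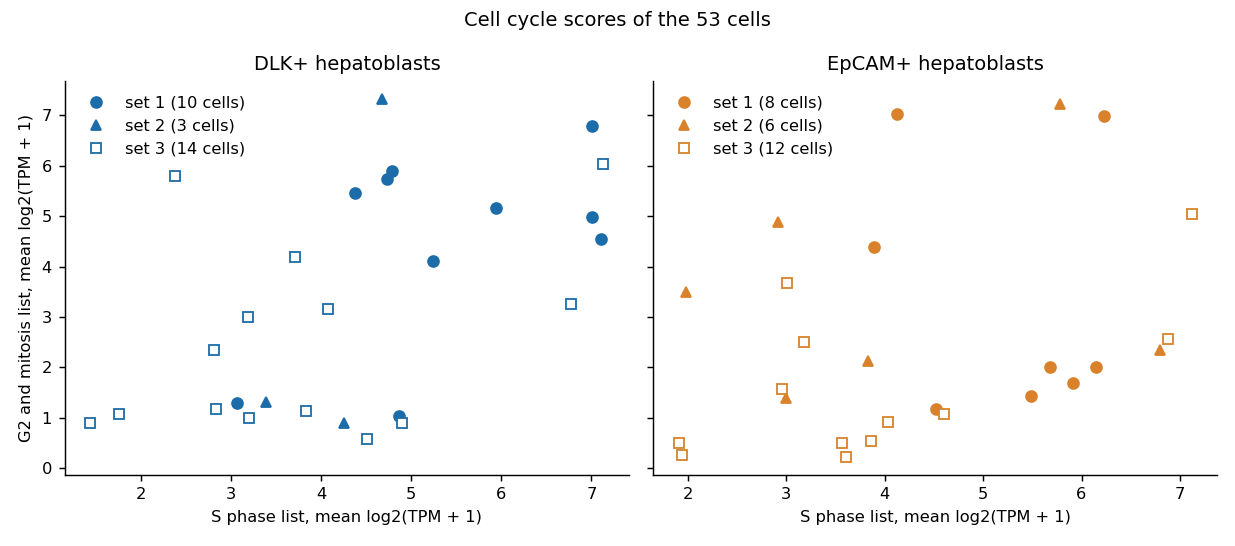
Each point is a hepatoblast, with the mean log2(TPM + 1) of the S phase list on the horizontal and of the G2 and mitosis list on the vertical axis, DLK+ cells left and EpCAM+ cells right, and marker shapes for sets. Cells spread along the vertical axis in both gates, with most set 3 cells (open squares) in the lower part.

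Variation between cells of a set was measured gene by gene as the SD of log2(TPM + 1) within sets, less the running median SD of genes of like mean (excess SD). Of 5896 genes with a mean of at least 10 TPM in DLK+ cells 191 had an excess of at least 1, and of 5988 such genes in EpCAM+ cells 177. On log2(TPM + 10), which damps low values, the numbers were 20 and 28. Of the 191 and 177, 88 were shared, 46.1% of the DLK+ and 49.7% of the EpCAM+ genes, and the excess correlated across 5615 genes with a Spearman rho of 0.70. Genes are not independent replicates, and both gates share the protocol and the base composition of each gene. At low levels the median spread of genes was below that of spiked-in RNA. At a mean of 10 to 100 TPM the median SD was 1.56 for genes and 2.40 for 20 ERCC RNAs in DLK+ cells, and above 1000 TPM 0.31 and 0.27. ERCC values were scaled to the gene total of each cell, so they may also hold differences in RNA content. The source of the spread was not tested.

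**Figure D4:**
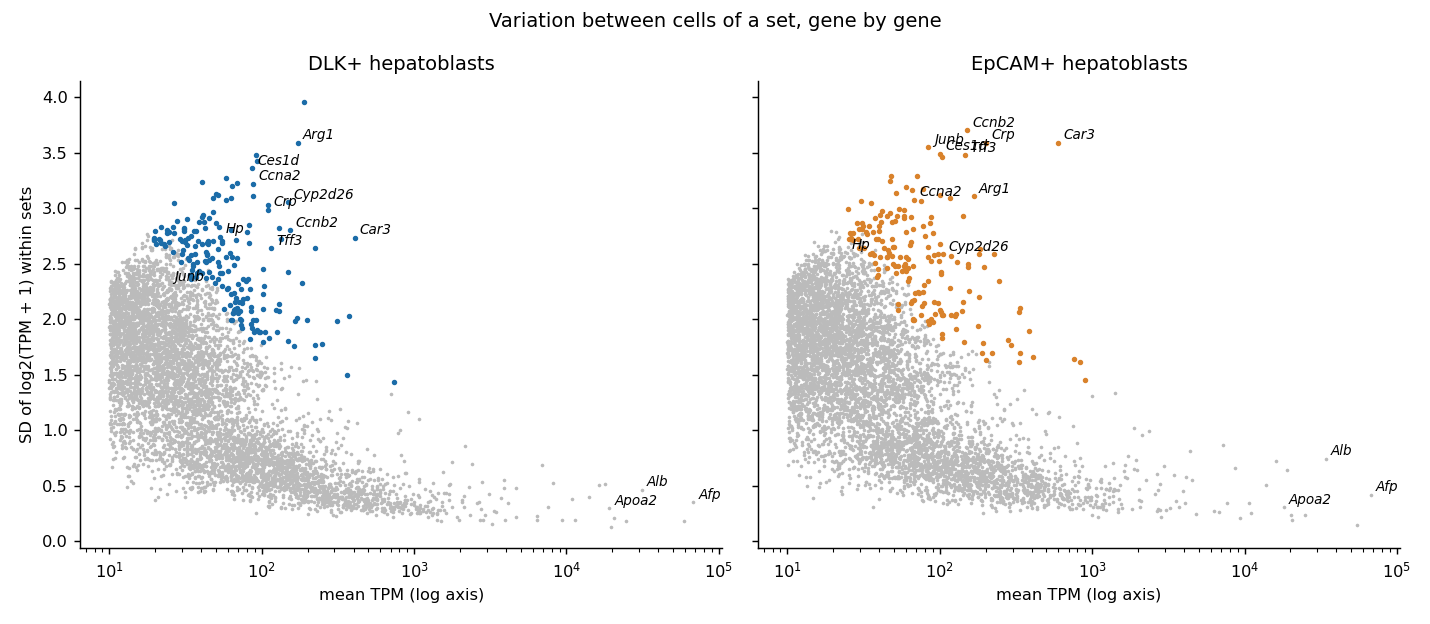
Each grey point is a gene with a mean of at least 10 TPM, with mean TPM on a log axis and the SD of log2(TPM + 1) within sets on the vertical axis, and coloured points exceed the running median by at least 1. Arg1, Car3, Crp and Ces1d and the cyclins Ccna2 and Ccnb2 lie high in both gates. Alb, Afp and Apoa2 lie far to the right and are not among the coloured points.

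The varying genes were of a few kinds. Division genes were the largest named group, with 10 of the 16 G2 and mitosis genes measured and 8 of 16 S phase genes in DLK+ cells, and 9 of 15 and 7 of 15 in EpCAM+ cells, beside 191 of 5896 and 177 of 5988 of all genes. Without set 3 the number of varying genes was 364 in DLK+ and 314 in EpCAM+ cells. Metabolic enzymes were another group. Arg1, which splits arginine in the urea cycle, ran from 0 to 862.3 TPM, with 39 cells at 10 TPM or more. Car3, a carbonic anhydrase, ran from 0 to 3938 TPM (46 cells), the carboxylesterase Ces1d from 0 to 1560 TPM (23 cells) and Cyp2d26 from 0 to 844.2 TPM (43 cells). Secreted proteins among them were Crp, an acute phase protein (0 to 824.8 TPM, 35 cells), and the trefoil peptide Tff3 (0 to 2045 TPM, 34 cells). Of 17 measured genes of the plasma list and of the coagulation list none varied in this sense in DLK+ cells, and none of 17 and 16 in EpCAM+ cells. This does not show that they are uniform. Only 103 DLK+ and 100 EpCAM+ genes had a mean above 1000 TPM, so abundant list genes are part of their own reference. The plasma list had a median excess of 0.16 and 0.17. Within DLK+ set 1 its member Gc ran from 22.13 to 982.2 TPM.

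Part of the varying genes followed the division genes from cell to cell, and part ran against them. Of the 88 shared genes 9 belong to the G2 and mitosis list and are left out here. Of the other 79, 19 had an r above 0.3 with the score of that list over the 53 cells, with set means taken out, and 12 an r below -0.3. Among the latter were Ces1d (-0.43), Car3 (-0.38), Tff3 (-0.36) and Arg1 (-0.36), while Crp (-0.26) and Cyp2d26 (-0.11) lay between. Of the immediate early and stress genes measured, 3 of 7 varied in EpCAM+ cells (Egr1, Jun and Junb) and 1 of 6 in DLK+ cells (Egr1), a difference that was not tested. Junb reached 10 TPM in 16 of 27 DLK+ cells and 13 of 26 EpCAM+ cells, with highest values of 146.6 and 554.4 TPM.

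From E13.5 to E14.5, 7 genes changed in the DLK+ gate. Of 16838 genes tested 3 were higher (0.0178%) and 4 lower (0.0238%) at E14.5, all with an adjusted p of 0.047 (edgeR). Apob (ENSMUSG00000020609, chromosome 12, 7977648 to 8016835), the structural protein of lipoproteins, had 418, 439 and 368 CPM in the E13.5 sets and 1015, 1195 and 788 in the E14.5 sets. It rose by 1.29 ± 0.25 on the log2 scale (SE). Eci2, an enzyme of fatty acid oxidation, had 28.1, 36.2 and 26.2 CPM and then 51.7, 62.4 and 79.9, and rose by 1.10 ± 0.22. The claudin Cldn3 had 0.133, 0 and 0 CPM and then 8.08, 10.52 and 1.38. Its E13.5 level rests on so few reads that no fold is given, and at E14.5 it reached 10 TPM in 4 of 27 DLK+ cells.

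The genes that fell were Mif, Rpl27, Snrpd3 and Cd24a. Mif, a cytokine, had 1182, 1188 and 1134 CPM at E13.5 and 708, 739 and 700 at E14.5, and fell by 0.71 ± 0.13. The ribosomal protein gene Rpl27 had 320, 297 and 288 CPM and then 183, 200 and 188, and fell by 0.66 ± 0.12. The splicing factor gene Snrpd3 fell by 0.86 ± 0.17 (143 ± 8.38 to 78.6 ± 18.9 CPM, SD, n = 3 sets). Cd24a, a surface protein of progenitor and duct cells, had 17.4, 8.86 and 25.4 CPM and then 3.06, 0.263 and 3.23, and fell by 2.75 ± 0.53. For these 7 genes the E13.5 and E14.5 sets do not overlap. The calls are near the threshold. No gene passed with RLE size factors, with these 6 sums alone, or when E13.5 set 1, 2 or 3 was left out, while leaving out E14.5 set 1, 2 or 3 gave 45, 1 and 3 calls.

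In the EpCAM+ gate none of 16838 genes passed for E14.5 against E13.5 (0% higher and 0% lower, with 1234 at an unadjusted p under 0.05 and 67 called by DESeq2), with 2 sets at E13.5. Some of the genes called in the DLK+ gate had these values. Apob had 566 and 366 CPM and then 1054, 938 and 736 (log2 difference 0.96 ± 0.29, adjusted p = 0.47). Cd24a had 38.7 and 47.2 CPM and then 7.35, 6.51 and 5.82 (-2.71 ± 0.53, adjusted p = 0.16), and Rpl27 280 and 272 CPM and then 180, 164 and 169 (-0.69 ± 0.14, adjusted p = 0.16). The sets do not overlap in these 3 genes. Eci2 had 57.0 and 38.0 CPM and then 39.2, 34.998 and 45.1, which overlap. Mif had a log2 difference of -0.56 (adjusted p = 0.35, edgeR). Snrpd3 and Cldn3 are not given for this gate. The difference between the gates in the change from E13.5 to E14.5 passed for 0 genes of 16838 (812 at an unadjusted p under 0.05).

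From E13.5 to E14.5 only Apob and Cldn3 of all list members passed, both in the DLK+ gate, so lists are given by direction. In the DLK+ gate 17 of 18 plasma genes had a positive log2 difference, with a median of 0.60, and in the EpCAM+ gate 17 of 18, with a median of 0.30. The coagulation list had 18 of 18 (0.61) and 17 of 18 (0.31), the bile acid list 11 of 12 (1.53) and 11 of 12 (0.89), and fatty acid oxidation 12 of 12 (0.56) and 12 of 12 (0.41). The median over all genes tested was 0. The G2 and mitosis list was positive for 17 of 18 genes in the DLK+ gate and for 6 of 18 in the EpCAM+ gate, with medians of 0.75 and -0.16. The S phase list was positive for 2 of 16 genes in the DLK+ gate (-0.43) and for 11 of 16 in the EpCAM+ gate (0.05). Set 3 moved with these counts. Without it the plasma list had 15 of 18 positive genes in the DLK+ gate (0.22) and 6 of 18 in the EpCAM+ gate (-0.09). The coagulation list then had 17 of 18 (0.39) and 11 of 18 (0.10), the bile acid list 11 of 12 (1.32) and 8 of 12 (0.44), fatty acid oxidation 11 of 12 (0.37) and 10 of 12 (0.24), and the G2 and mitosis list 17 of 18 and 15 of 18, with the EpCAM+ median turning from -0.16 to 0.27. The S phase list without set 3 had 2 of 16 (-0.39) and 10 of 16 (0.11). No erythroid gene passed. Of 10 tested, 9 were positive in the DLK+ gate, with a median of 2.08, and 5 in the EpCAM+ gate, with a median of 0.11. Without set 3 they were 6 (0.55) and 5 (0.08), and their part in the other lists was not tested.

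From E14.5 to E15.5 in the DLK+ gate 1 gene was higher (0.00594%) and 1 lower (0.00594%) of 16838. This comparison shares the E14.5 sums with the one before. Per1, a clock gene (ENSMUSG00000020893, chromosome 11, 69095217 to 69109960), had 8.00, 8.68 and 3.10 CPM at E14.5 and 22.1, 28.3 and 44.4 at E15.5, and rose by 2.28 ± 0.41 (adjusted p = 0.030, edgeR's quasi-likelihood test). Rcn3, a calcium-binding protein of the endoplasmic reticulum (ENSMUSG00000019539, chromosome 7, 45082913 to 45092221), had 16.4, 77.1 and 15.4 CPM and then 2.101, 4.02 and 1.98, and fell by 3.75 ± 0.61 (adjusted p = 0.015). At E13.5 Rcn3 stood at 48.5, 56.5 and 72.9 CPM. Neither call was left without E14.5 set 2, without E15.5 set 3 or without E15.5 set 4, and 1 was left without E14.5 set 3 or without E15.5 set 1. All 18 plasma list genes and 17 of 18 coagulation genes had positive differences, with medians of 0.46 and 0.43, and none passed. Without E14.5 set 3 these medians were 0.75 and 0.69, with 18 of 18 positive in both lists.

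**Figure D5:**
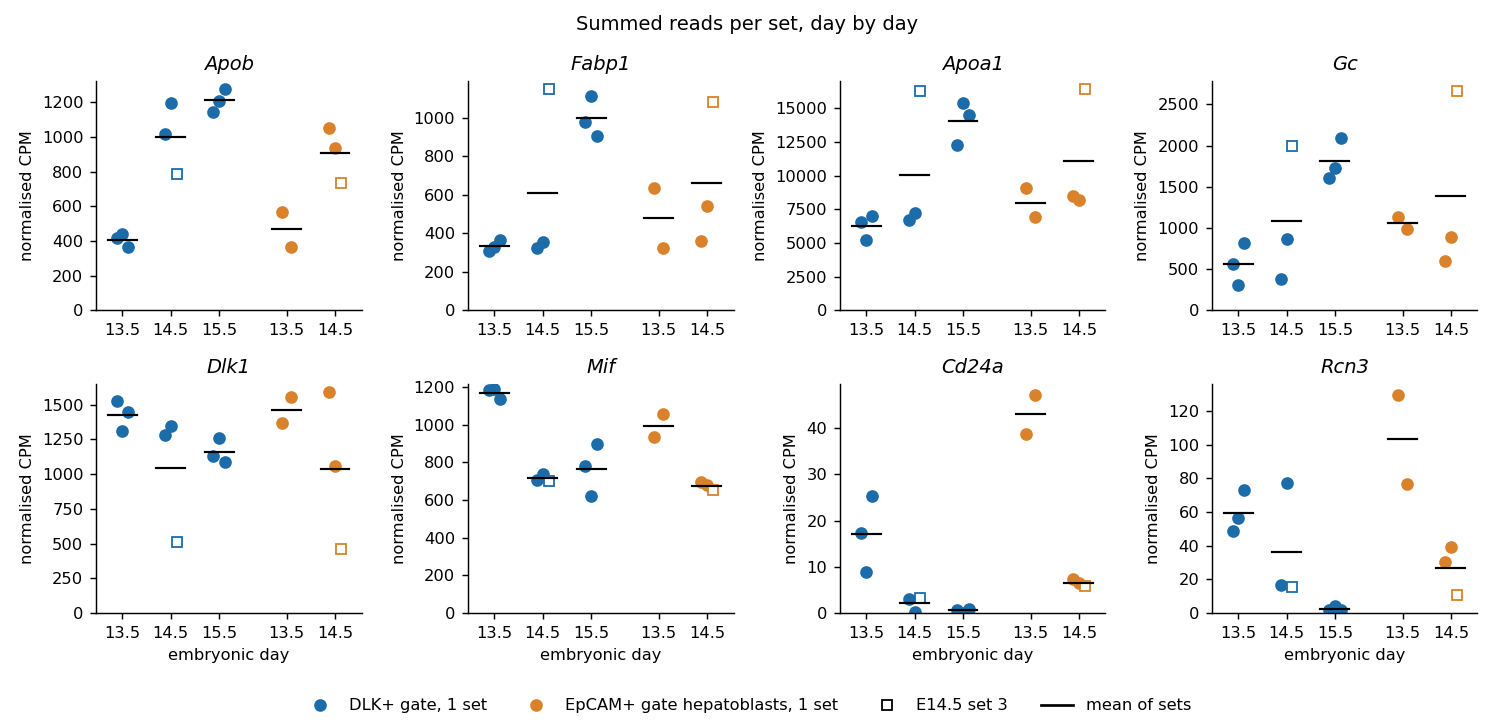
Each point is the normalised CPM of a set, the horizontal axis is the embryonic day, blue marks the DLK+ gate, orange EpCAM+ hepatoblasts, open squares E14.5 set 3, and bars are means. Apob is higher and Mif and Cd24a lower at E14.5 than at E13.5, and set 3 lies apart for Fabp1, Apoa1, Gc and Dlk1 in both gates.

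Within E14.5, set 3 stood apart from sets 1 and 2 in many genes of the plasma list. Fabp1, the fatty acid carrier of hepatocytes (ENSMUSG00000054422, chromosome 6, 71199827 to 71205023), had 325, 354 and 1148 CPM in the DLK+ sets and 357, 540 and 1079 in the EpCAM+ sets. At E13.5 the DLK+ sets had 310, 331 and 363 CPM and at E15.5 977, 1114 and 905, so that sets 1 and 2 of the DLK+ gate lie near E13.5 and set 3 just above E15.5. Apoa1 had 6670, 7239 and 16317 CPM in the E14.5 DLK+ sets and 8496, 8219 and 16463 in the EpCAM+ sets. The DLK+ sets had 6525, 5217 and 7017 CPM at E13.5 and 12295, 15358 and 14487 at E15.5, so that set 3 lies above the E15.5 sets. In Gc, the vitamin D carrier, and the haemoglobin scavenger Hp set 3 was the highest set of both gates as well. Hp had 4.00, 0.789 and 89.5 CPM in the DLK+ and 4.65, 8.14 and 39.8 in the EpCAM+ sets. Cell by cell, Fabp1 ran from 1201 to 4567 TPM in set 3 and from 193.7 to 3197 in sets 1 and 2, which overlap.

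Set 3 was compared with sets 1 and 2 over the 9 E14.5 sums, cholangiocytes included, with group as a term, a comparison chosen after these values were seen. EpCAM+ hepatoblasts and cholangiocytes share set numbers, so the 9 sums are not 9 independent samples and the p-values are too small. Of 12719 genes tested 42 were higher (0.33%) and 43 lower (0.338%) in set 3 by edgeR, with 1446 at an unadjusted p under 0.05. Fabp1 was higher by 1.54 ± 0.15 (adjusted p = 0.0052), Apoa1 by 1.00 ± 0.09 (0.0043), Gc by 1.51 ± 0.19 (0.018) and Hp by 3.54 ± 0.51 (0.024), all on the log2 scale. Of 17 plasma list genes tested 9 were higher, with a median difference of 0.69, and of 18 coagulation genes 6 were higher and 1 lower (C3), with a median of 0.65, beside 0.05 over all genes. Lower in set 3 were Dlk1 (-1.50 ± 0.14, adjusted p = 0.0043), Mki67, a marker of dividing cells (-1.35 ± 0.22, 0.032), and Reln, a secreted glycoprotein (-1.20 ± 0.18, 0.026). Cdkn1c was higher (0.69 ± 0.12, 0.038). No gene passed over the 6 hepatoblast sums alone, or without the set 3 sum of either gate's hepatoblasts, and leaving out any other of the 9 sums gave 11 to 62 genes.

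The genes of this split were then read in days that it did not use. Between E15.5 and E13.5 of the DLK+ gate 112 genes were higher (0.665%) and 97 lower (0.576%) of 16838. Of the 42 genes higher in set 3, 15 were higher at E15.5 (35.7% of the 42, and 13.6% of the 110 genes higher at E15.5 among the 12719 tested in both) and 0 lower. The median log2 difference of the 42 was 1.23, beside -0.01 over the 12719 genes, of which 0.865% were higher. Of the 43 genes lower in set 3, 1 was higher and 0 lower, with a median of 0.15. Dlk1 at E15.5, 1129, 1261 and 1084 CPM, was not as low as in set 3. Set 3 also differs in genes detected and in spiked-in share, as given above. The set, its sorting and processing, and the stage of its cells cannot be told apart.

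Transcripts of other cell types were few. Of the 12 erythroid genes at least 1 reached 10 TPM in 17 of 53 cells, with at most 5 genes in a cell and a summed level of 0 to 368 TPM (median 3.74). By set the summed level reached 11.7, 32.8 and 265.5 TPM in DLK+ and 46.4, 54.9 and 368 TPM in EpCAM+ cells. Slc4a1 and Rhd, surface proteins of red cells, reached 10 TPM in no cell. Genes of other blood cells reached 10 TPM in 2 cells, of endothelium in 3 and of mesothelium in 4, with Kdr, Cdh5, Msln and Wt1 without a read. Of the mesenchymal list Reln was in 44 cells, while Col1a1 and Col3a1 were below 1 TPM and Col1a2, Dcn, Acta2 and Postn had no read. The part of erythroid RNA in any result above was not tested.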

How the data were processed

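Counts were deposited by the authors as reads per gene and cell for 40824 genes and 92 ERCC spike-ins, with a gene length column (another unit, bases, as the authors give it). Per the submitters' processing notes, TopHat2 2.1.0, Bowtie2 and HTSeq 0.6.0 were used on GRCm38. Reads carry no molecular identifiers, and intervals cover counting error only. No doublet caller was run and no cell was removed. The deposited TPM tables were not used. TPM were computed from counts and lengths. For tests, the counts of cells sharing group and set number were added up. The 42 such sums of embryo cells that hold 2 or more cells were fitted together with edgeR 4.0.16 (glmQLFit, glmQLFTest, TMM, filterByExpr, Benjamini-Hochberg, called below 0.05) in R 4.3.3, with the group of stage, gate and putative type as the term. SE is the log2 change over the root of the F statistic. ERCC reads stayed out of library sizes.

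The 24 gene lists hold 334 genes, of which 1 was not found. Some list members enter the counts but are not reported by name here. Members, lists and tests were chosen with earlier results of these data known. Genes named are, per comparison, up to 10 rises and 10 falls among called genes with at least 10 CPM and sets that do not overlap, for each list 4 called members at most or else the 2 of highest level, and the markers Alb, Afp, Dlk1, Gys2, Epcam, Sox9, Spp1 and Krt19. For levels they are the 20 highest genes, for variation the 15 largest excesses per gate. Predicted, mitochondrial and haemoglobin genes are left out. Other genes were picked from the lists after their values were seen. Alternatives were RLE size factors, DESeq2 1.42.0, no low-count filter, the sums of both groups alone, limma 3.58.1 on log2(TPM + 1), a set block, other TPM limits and leaving out each set. Scripts were tested on simulated data. There the tests of days found 15 to 22% of planted 2-fold and 73 to 74% of planted 4-fold changes. Gene coordinates are GENCODE vM21.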

Additional observations from a re-analysis of the deposited data

How the results depend on the processing

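In the comparison of gates, 0 genes passed with RLE size factors, without a filter, with the sums of both gates alone, with limma, with sets 1 and 2 alone, and in the E14.5 sums alone with or without the set number as a block (replicate block, 0 in each). DESeq2 gave 21, and leaving out a set 0 to 1. The set numbers are not shown to pair the gates: the correlation of deviations of same-numbered sets was 0.078, 0.036 and 0.145. For E14.5 against E13.5 in the DLK+ gate (7 calls), RLE size factors and both groups alone gave 0, no filter and limma 11 each, DESeq2 142, and leaving out a set 0 to 45. In the EpCAM+ gate (0 calls), no filter gave 1, limma 3, DESeq2 67 and leaving out a set 0. For E15.5 against E14.5 (2 calls), no filter gave 1, both groups alone 0, limma 11, DESeq2 26 and leaving out a set 0 to 2. For set 3 against sets 1 and 2 (85 calls), DESeq2 gave 653, the hepatoblast sums alone 0 and leaving out a sum 0 to 62. The causes were not tested. Among named genes, 650 alternative values stayed on their side of the threshold, 10 newly passed and the others no longer passed. No value that passed in either fit changed sign, but genes that passed in neither did: Epcam between gates ran from -1.85 to 1.34, with the same sign in 11 of 14 alternatives.

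Cells with at least 4 biliary genes numbered 24, against 46 at 1 TPM, 3 at 50 TPM, 9 in sets 1 and 2 and 15 in set 3. Cells with at least 9 mitosis genes numbered 22, against 9 at 50 TPM and 7 in set 3. Varying genes numbered 191 (DLK+) and 177 (EpCAM+), against 20 and 28 on log2(TPM + 10), 111 in DLK+ cells at a mean of 50 TPM, and 184 to 364 and 190 to 314 without 1 set, the highest without set 3. Alternatives that leave out set 3, the comparisons of set 3 and its splits were chosen after seeing the data, apart from leaving out each set and sets 1 and 2 alone for the gates. Each comparison of gates or days rests on 3 sets a side, and on 2 for E13.5 EpCAM+ cells.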
